A study of Mus musculus with 9 samples.

Results

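The heat shock proteins, their cochaperones and the transcription factors that control them were followed as a module of 35 genes, chosen by matching the symbols of a list. The list was drawn up with earlier results of these data known. All 35 were found among the 57126 genes of the count table, and 34 of them passed the filter on low counts that left 17555 genes for testing. Cryab, the small heat shock protein alpha-B crystallin, did not pass. The genes of the Hspa1 locus, which encode the inducible HSP70, were left out of the list because overlapping genes share reads there. The cells were mouse plasmacytoid dendritic cells (pDCs), a sorted immune cell type that senses nucleic acids in its endosomes and is known for releasing type I interferon. They had been treated with PBS, a phosphate-buffered salt solution that serves as the vehicle control, with mtDNA, the DNA of mitochondria, or with Ox-mtDNA, its oxidized form. Each group has 3 polyA RNA-seq libraries with replicate numbers 1 to 3. Strain, age, dose and treatment time are not given in the labels used here, and neither is whether replicates came from separate animals or cultures, so p-values measure only the spread between these libraries.

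When unfolded proteins accumulate, the transcription factor HSF1 is released from chaperones that hold it, forms trimers and binds heat shock elements, which are inverted repeats of the bases GAA near the start sites of chaperone genes. The chaperones work in relays. Small heat shock proteins hold unfolding proteins, J proteins (HSP40) pass them to HSP70, exchange factors and HSP110 reset HSP70, and HSP90 with its cochaperones matures kinases and receptors. HSP60 with HSP10 folds proteins inside mitochondria, and the CCT ring folds actin and tubulin in the cytosol.

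The libraries held 16029951 to 25378884 counts. Levels are given as CPM, the share of a library's counts scaled to a common total and adjusted by trimmed mean of M values (TMM) factors. Replicate 3 of every group stood apart from replicates 1 and 2. Xist, which silences an X chromosome, read 818 (PBS), 1928 (mtDNA) and 2087 CPM (Ox-mtDNA) there, while replicates 1 and 2 ranged from 0 to 0.846 CPM. The 778 tested genes with a GC content above 60% had medians of -2.10, -1.90 and -1.85 in the same 3 libraries, as log2 differences from the mean of PBS replicates 1 and 2. Among the members only Hspb1, at 61.2%, has a GC content above 60%. The pDC markers Siglech and Bst2 were at 1194 to 2439.8 and 617 to 1528 CPM across the 9 libraries. Other pDC markers, Tlr9, Irf8, Pacsin1, Runx2, Spib and Il3ra, were lower in PBS replicate 3 than in PBS replicates 1 and 2. Tlr9, for example, read 256, 285 and 11.6 CPM in PBS replicates 1, 2 and 3, and Irf8 2680, 2944 and 389 CPM. The remaining pDC markers followed here were highest in replicate 3 among the PBS libraries.

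The module was higher after Ox-mtDNA than after PBS in all 3 replicate numbers, but no single member passed edgeR's test over all genes. Summed over the 35 members, levels ran from 6708 to 8803 CPM in PBS, from 6421 to 13559.7 CPM in mtDNA and from 13289 to 32370 CPM in Ox-mtDNA. Every Ox-mtDNA library lay above every PBS library in this sum. The lowest of them, replicate 3, stood beside mtDNA replicate 3 at 13559.7 CPM. Hspa8, Hsp90aa1 and Hsp90ab1 weighed most in the sum, at 3098, 2088 and 3139 CPM in Ox-mtDNA replicate 3. The members took up 0.685% to 0.914% of all counts in PBS and 1.33% to 2.95% in Ox-mtDNA. In edgeR's quasi-likelihood fit, the median log2 fold change of the 34 tested members was 0.76, beside 0.06 over all tested genes. It was 0.46 without Ox-mtDNA replicate 2, and medians of the differences between same-numbered libraries were 0.46, 1.56 and 0.34 for numbers 1, 2 and 3. Of the 34 members, 33 had a positive fold change, as had 53.8% of all tested genes, and 13 exceeded 2-fold, as did 13.2%. Because the members were chosen with earlier results of these data known, such shares are no independent test. The groups did not overlap for 15 members, all higher after Ox-mtDNA, beside 7.39% of all genes higher and 8.08% lower. Higher values after Ox-mtDNA in each of the 3 replicate numbers were found for 20 members, against 20% of all genes.

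At an adjusted p under 0.05, edgeR's quasi-likelihood test called 0 of the 34 members and 0 of 17555 genes (0%) in Ox-mtDNA against PBS. At an unadjusted p under 0.05 it counted 13 members higher and 0 lower, beside 5.88% and 3.93% of all genes. Other tools run on the same counts called some members. DESeq2's Wald test called 8, namely Hspb1, Hsph1, Hsp90aa1, Hsp90ab1, Hspd1, Dnaja4, Dnajb1 and Dnajb4, among 370 genes (2.11%), and all 8 had positive fold changes. limma-voom called 0 (0% of genes), with 11 members and 1519 of 17555 genes at an unadjusted p under 0.05. With sample quality weights and the replicate number as a block, limma-voom called 4 members (Hspb1, Hsp90aa1, Dnajb4 and Bag3) among 423 genes (2.41%). In replicates 1 and 2 alone, edgeR called 5 members, Hspb1, Hspa8, Hsp90aa1, Hsp90ab1 and Hspe1, among 25 genes (0.146% of 17151), and with the replicate block added it called 0 (0%). With the replicate block over all 9 libraries, edgeR called 1 gene (0.0057%), which was no member. Members at an unadjusted p under 0.05 went from 13 to 19 of 34, while all genes there went from 1722 to 3345 of 17555. Hspb1 and Hsp90aa1 were called in all 3 of the settings that called any member, and 11 members in at least 1.

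**Figure D1:**
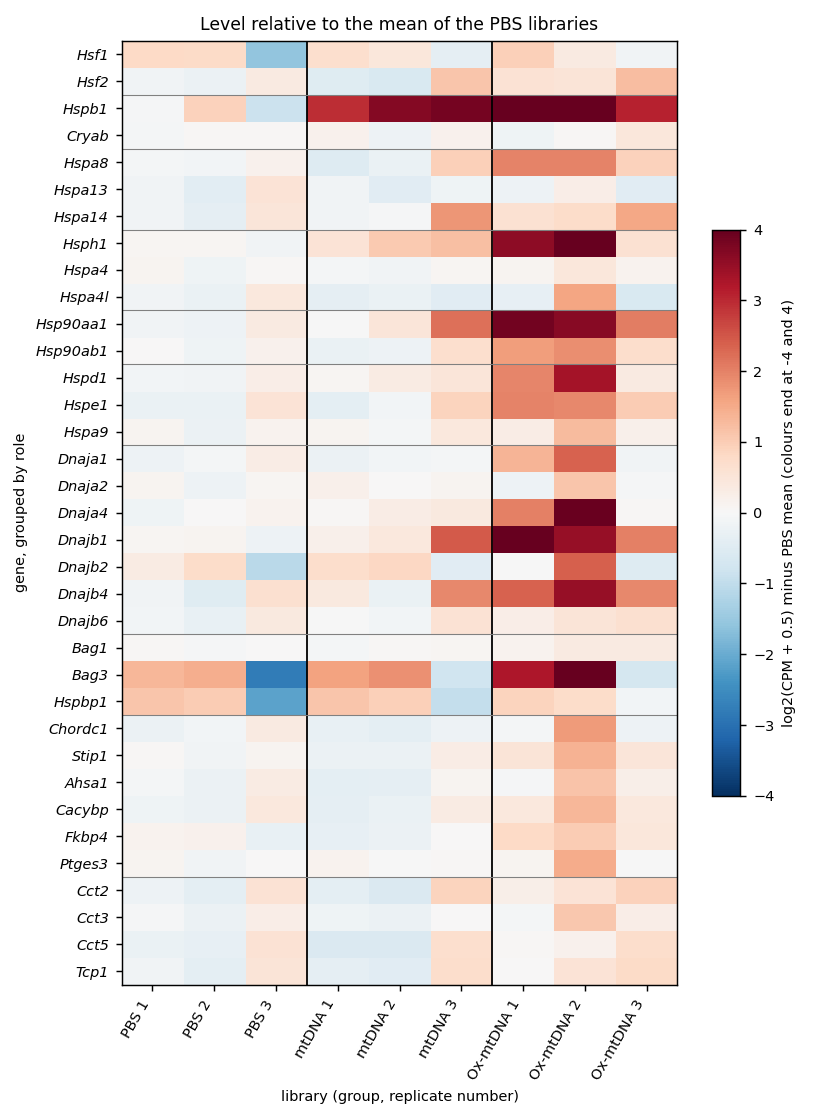
Heat map of the 35 members (rows, ordered by role) in the 9 libraries (columns), coloured by log2(CPM + 0.5) minus the mean of the 3 PBS libraries, with the colour scale ending 4 log2 units below and above that mean. Values past the upper end lie at Hspb1 in Ox-mtDNA replicates 1 and 2, at Dnajb1 in replicate 1 and at Hsph1 and Bag3 in replicate 2, and Bag3 and Hspbp1 are low in PBS replicate 3.

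Immediate-early genes, which lie outside the module and respond to handling, were also higher in sum in every Ox-mtDNA library than in any PBS library. In replicate 3 their sum was 2120.3 CPM after Ox-mtDNA and 2272 CPM after mtDNA. The summed level of 18 immediate-early genes, which are induced within minutes of stimulation or cell handling, was 444 to 865 CPM in PBS, 914 to 2272 CPM in mtDNA and 2120.3 to 13112 CPM in Ox-mtDNA. Mitochondrially encoded genes took 1.52 to 3.18% of counts in PBS, 1.46 to 2.78% in mtDNA and 2.68 to 3.05% in Ox-mtDNA. The 14 pDC markers summed to 8879 to 12875, 7201 to 10977 and 4969 to 11212 CPM in the same order, and B cell markers to 321 to 474, 210.2 to 250.2 and 148 to 719.9 CPM, highest in Ox-mtDNA replicate 2. T cell markers summed to 221 to 315 CPM in PBS and 221 to 293 CPM in Ox-mtDNA, nearly all of it Cd28, with Cd3e at 0 to 1.14 CPM. Monocyte and macrophage markers summed to 1217 to 2270 and 679.7 to 1149 CPM, and conventional dendritic cell markers to 889 to 1409.7 and 505 to 1335 CPM, lowest in Ox-mtDNA replicate 2, while NK cell, neutrophil and erythroid markers stayed at or below 2.03, 16.7 and 0.846 CPM. The part of these genes and cells in the members' differences was not tested. In bulk RNA, fewer cells of a type and less RNA per cell cannot be told apart.

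Promoter sequences are shown for the members whose start sites hold the longest form of the heat shock element that was searched. HSF1 binds this element. RefSeq windows of 300 bases (build GRCm38.p6, 250 bases before to 50 after a start site) matched 28 of the 35 members. Those not matched were Hsf1, Cryab, Hspa8, Hspa13, Hsp90aa1, Hsp90ab1 and Hspa9. A match to 3 units in a row, GAANNTTCNNGAA or TTCNNGAANNTTC on either strand, was found in the windows of 5 of the 28 members (17.9%) and of 179 of 27025 genes (0.662%). The shorter form of 2 units, GAANNTTC or TTCNNGAA, which the longer one contains, was found for 13 of 28 members (46.4%) and 17% of genes. As a motif outside the heat shock response, CCAAT or its complement ATTGG was found for 10 of 28 members (35.7%) and 41.1% of genes. Such matches describe letters and not bound sites. The sequences are written 5′ to 3′ along the gene's strand with the matched bases in capitals. Hspd1 has 2 start sites in the table. From the first, Hspd1 and Hspe1 point away from each other with 215 bases between their start sites, so the stretch between them, shown on the strand of Hspe1, serves as the upstream region of both and holds overlapping matches starting 89 and 84 bases before the Hspe1 start. The second Hspd1 start lies beyond that of Hspe1, and its window has no 3-unit match. Dnajb6 and Hsph1 also have 2 start sites each. The match of Dnajb6 starts 46 and 127 bases before them, that of Hsph1 begins 15 and 36 bases after them, and Chordc1 has 3 overlapping matches across its start. Hspb1, the member with the largest fold change, has no 3-unit match, and its 200 bases before the start show 2 matches of the 2-unit form.
Hspd1-Hspe1, chr1:55087933-55088147, plus strand: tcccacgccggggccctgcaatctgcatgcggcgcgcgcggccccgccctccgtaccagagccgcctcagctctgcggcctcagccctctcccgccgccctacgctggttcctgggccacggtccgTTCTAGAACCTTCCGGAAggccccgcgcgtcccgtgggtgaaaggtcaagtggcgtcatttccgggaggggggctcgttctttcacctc
Hsph1, chr5:149636279-149636308, minus strand: gctgcagaTTCTGGAAAGTTCtcctcagta
Chordc1, chr9:18292260-18292289, plus strand: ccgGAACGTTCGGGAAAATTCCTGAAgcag
Dnajb6, chr5:29735844-29735873, plus strand: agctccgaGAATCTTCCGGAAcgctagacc
Hspb1, chr5:135887719-135887918, plus strand: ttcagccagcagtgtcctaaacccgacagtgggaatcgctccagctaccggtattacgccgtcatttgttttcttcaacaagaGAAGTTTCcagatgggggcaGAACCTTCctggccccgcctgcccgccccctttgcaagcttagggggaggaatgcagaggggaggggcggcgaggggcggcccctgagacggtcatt

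Of the 5 members with a 3-unit match, Hsph1, Hspd1 and Hspe1 exceeded 2-fold in Ox-mtDNA against PBS, at 3.87 (SE 0.911), 2.33 (SE 0.642) and 1.65 (SE 0.453) on the log2 scale. Chordc1, which has the most matches, had 0.73 (SE 0.504), and Dnajb6 had 0.45 (SE 0.296). Dnajb1 had 4.36 (SE 1.03) with neither form in its window. Fold changes of members with and without a match thus overlapped.

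Neither HSF factor passed edgeR's test against PBS, which called 0 of 17555 genes. Hsf1 stood at 45.8, 44.9 and 8.47 CPM in PBS replicates 1, 2 and 3, at 41.8, 35.5 and 20.4 CPM in the mtDNA replicates and at 51.4, 33.5 and 23.6 CPM in the Ox-mtDNA replicates. Hsf1, the factor that switches the response on, was lowest in the replicate 3 library of every group, and the groups overlapped. Its log2 fold change in Ox-mtDNA against PBS was 0.13 (SE 0.618), and it was -0.09 in replicates 1 and 2 alone. The GC content of Hsf1 is 57.3%, and a correction for GC content gave 0.22 (SE 0.347). The PBS libraries held Hsf2 at 10.8, 10.2 and 15.7 CPM, the mtDNA libraries at 8.43, 7.71 and 26.6 CPM and the Ox-mtDNA libraries at 18, 17.6 and 29 CPM, in order of replicate number. Hsf2, a factor that forms mixed trimers with HSF1, lay above every PBS library in all 3 Ox-mtDNA libraries, and its log2 differences from the PBS library of the same number were 0.71, 0.76 and 0.87. The fitted log2 fold change of Hsf2 was 0.82 (SE 0.525), with an edgeR adjusted p of 0.72.

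Hspb1 (HSP27, at chr5:135916773-135918417 in GRCm39, the build of all gene positions given with a level) showed the largest fold change of the module. For Hspb1, replicates 1 to 3 read 0.977, 2.42 and 0.342 CPM in PBS, 11.4, 19.3 and 21.1 CPM in mtDNA and 504, 344 and 12.5 CPM in Ox-mtDNA. The PBS values rest on 21, 47 and 9 counts. All 3 Ox-mtDNA libraries and all 3 mtDNA libraries lay above all 3 PBS libraries, but Ox-mtDNA replicate 3 lay within the range of the mtDNA libraries. The log2 fold change of Hspb1 in Ox-mtDNA against PBS was 7.85 (SE 1.46), with edgeR's adjusted p at 0.472 and the unadjusted p at 0.000667. In replicates 1 and 2 alone Hspb1 rose by 7.97 on the log2 scale (SE 0.623, edgeR adjusted p = 0.0276), a call lost when the replicate block was added. With a correction for GC content over all libraries the value was 7.40 (SE 1.2, edgeR adjusted p = 0.454). Cryab, the related crystallin, held 0.0551 to 0.361 CPM, with 1 to 7 counts per library, and 19.5% of its exon bases are shared with Hspb2 on the opposite strand.

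The cytosolic HSP70 of resting cells, Hspa8 (HSC70, chr9:40712280-40716496), which also uncoats clathrin vesicles, was the most abundant HSP70 of the list. Levels of Hspa8 were 1559, 1517 and 1852 CPM (PBS 1 to 3), 1156, 1348 and 3137 CPM (mtDNA 1 to 3) and 6419.8, 6495 and 3098 CPM (Ox-mtDNA 1 to 3). Ox-mtDNA replicates 1 and 2 were about equal and far above the other libraries, and the Ox-mtDNA and mtDNA libraries of replicate 3 were about equal to each other. All Ox-mtDNA libraries lay above all PBS libraries, and the log2 fold change of Hspa8 was 1.70 (SE 0.459), with an edgeR adjusted p of 0.472. Hspa8 rose by 2.08 (SE 0.166, edgeR adjusted p = 0.0276) in replicates 1 and 2 alone, a call lost when the replicate block was added. Hspa14, a ribosome-associated HSP70, read 49.7, 42.8 and 76.8 CPM in PBS and 83.1, 90.4 and 161 CPM in Ox-mtDNA. Its groups did not overlap, its log2 fold change was 0.98 (SE 0.571), and 17.9% of its exon bases lie in the overlapping gene Gm45902, whose reads were counted for both. Hspa13, a microsomal HSP70 family member, was the only one of the 34 with a negative fold change, -0.15 (SE 0.333), with 39.4, 33 and 64.9 CPM in PBS and 38.3, 53.2 and 31.9 CPM in Ox-mtDNA.

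The 3 HSP110 genes, which exchange the nucleotide of HSP70 and keep aggregates soluble, differed widely among themselves. Hsph1 stood at 101, 101 and 86.1 CPM in PBS replicates 1, 2 and 3, at 139, 199 and 219.9 CPM in the mtDNA replicates and at 1141, 2939.8 and 146 CPM in the Ox-mtDNA replicates. Hsph1 (HSP105, chr5:149537752-149559803), which has a 3-unit element just after its start, lay above all PBS libraries in every Ox-mtDNA library, but Ox-mtDNA replicate 3 was lower than mtDNA replicate 3. Its log2 fold change was 3.87 (SE 0.911), edgeR adjusted p = 0.472, and 2.74 without Ox-mtDNA replicate 2. Hspa4 (APG-2) read 266, 219 and 254 CPM in PBS and 265, 335 and 271 CPM in Ox-mtDNA, with overlapping groups and a log2 fold change of 0.24 (SE 0.217). The PBS libraries held Hspa4l at 34.6, 31.7 and 51.7 CPM, the mtDNA libraries at 29.6, 31.6 and 27.9 CPM and the Ox-mtDNA libraries at 30.7, 115 and 25 CPM, in order of replicate number. Ox-mtDNA replicate 2 was far above all other libraries of Hspa4l (APG-1), while Ox-mtDNA replicates 1 and 3 lay below every PBS library. Its log2 fold change of 0.53 (SE 0.56) became -0.51 without Ox-mtDNA replicate 2.

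Both cytosolic HSP90 genes were higher in every Ox-mtDNA library than in any PBS library. For Hsp90aa1, replicates 1 to 3 read 455, 438 and 645 CPM in PBS, 499, 706 and 2313 CPM in mtDNA and 7374, 6307 and 2088 CPM in Ox-mtDNA. Hsp90aa1, the stress-inducible form at chr12:110657039-110662829, had a mean of 513 ± 115 CPM (SD, n = 3) over the PBS libraries, while the Ox-mtDNA libraries gave 5257 ± 2795 CPM (SD, n = 3). Its replicate 3 level after Ox-mtDNA was below that of mtDNA replicate 3. The log2 fold change against PBS was 3.36 (SE 0.71), with an edgeR adjusted p of 0.472. In replicates 1 and 2 alone Hsp90aa1 rose by 3.94 (SE 0.246, edgeR adjusted p = 0.0276). Levels of Hsp90ab1 were 1947, 1721 and 2155 CPM (PBS 1 to 3), 1625, 1668 and 3049.9 CPM (mtDNA 1 to 3) and 6186, 7075 and 3139 CPM (Ox-mtDNA 1 to 3). Hsp90ab1, the constitutive form (chr17:45878701-45884197), had all 3 Ox-mtDNA libraries above all 6 others, replicate 3 by a small margin over mtDNA replicate 3. The log2 fold change was smaller than that of Hsp90aa1, 1.49 (SE 0.389), with an edgeR adjusted p of 0.472. Hsp90ab1 rose by 1.86 (edgeR adjusted p = 0.0339) in replicates 1 and 2 alone. The calls of both HSP90 genes in replicates 1 and 2 alone were lost when the replicate block was added.

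Among the mitochondrial chaperones, the groups of Ox-mtDNA and PBS did not overlap for any of the 3 genes, beside 7.39% of all genes higher without overlap. The margin was small for Hspd1 and Hspa9, where Ox-mtDNA replicate 3 lay below mtDNA replicate 3. Hspd1 stood at 131, 129.9 and 169 CPM in PBS replicates 1, 2 and 3, at 149.9, 178 and 198 CPM in the mtDNA replicates and at 549, 1427 and 182 CPM in the Ox-mtDNA replicates. Hspd1 encodes HSP60 and Hspe1 its lid, HSP10. For Hspe1, replicates 1 to 3 read 90.5, 92 and 159.9 CPM in PBS, 84.1, 101 and 206 CPM in mtDNA and 434, 417 and 222 CPM in Ox-mtDNA. Both genes were higher in Ox-mtDNA replicates 1 and 2 than in every other library, and in replicate 3 both were close to mtDNA replicate 3. Although this pair can share an upstream stretch, replicate 2 exceeded replicate 1 by 2.6 times for Hspd1 and the ratio was 0.961 for Hspe1. The log2 fold changes were 2.33 (SE 0.642) for Hspd1 and 1.65 (SE 0.453) for Hspe1, each with an edgeR adjusted p of 0.472. Hspe1 rose by 2.23 (edgeR adjusted p = 0.0339) in replicates 1 and 2 alone, a call lost when the replicate block was added. Hspd1 had 1.34 without Ox-mtDNA replicate 2. Hspa9 (mortalin, the matrix HSP70) read 243, 193 and 249.9 CPM in PBS, 245, 214 and 307 CPM in mtDNA and 279, 544 and 262 CPM in Ox-mtDNA. Its log2 fold change was 0.66 (SE 0.336), or 0.23 without Ox-mtDNA replicate 2.

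The 7 J proteins all had positive fold changes, 5 of them above 2-fold. The PBS libraries held Dnajb1 at 87.4, 89.7 and 72.3 CPM, the mtDNA libraries at 94.7, 110.1 and 450.5 CPM and the Ox-mtDNA libraries at 3842, 940.1 and 334 CPM, in order of replicate number. Dnajb1, the inducible HSP40 (chr8:84334822-84339282), was the only member more than 2-fold higher in Ox-mtDNA replicate 1 than in replicate 2, where the level was 0.245 times that of replicate 1. Its PBS libraries lay below all other libraries, and mtDNA replicate 3 exceeded Ox-mtDNA replicate 3. The log2 fold change of Dnajb1 was 4.36 (SE 1.03), edgeR adjusted p = 0.472, and 2.90 without Ox-mtDNA replicate 1. Dnajb4, a close relative of Dnajb1, stood at 7.02, 5.46 and 12.4 CPM in PBS and at 42.5, 92.2 and 31.4 CPM in Ox-mtDNA. These groups did not overlap, and the log2 fold change was 2.74 (SE 0.711). Dnaja1, a cochaperone of HSC70 at membranes and in the cytosol, read 163, 175 and 228 CPM in PBS, 159, 173 and 176 CPM in mtDNA and 482, 959 and 171 CPM in Ox-mtDNA. Ox-mtDNA replicates 1 and 2 were high and replicate 3 lay inside the PBS range, so its log2 fold change of 1.51 (SE 0.535) came with overlapping groups, and it was 0.78 without Ox-mtDNA replicate 2. Of its exon bases, 10.5% lie opposite Smu1, with reads counted for both genes.

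Dnaja4 showed the same layout at a low level, with 2.6, 2.99 and 3.34 CPM in PBS and 13.4, 52.7 and 3.04 CPM in Ox-mtDNA. Its log2 fold change was 2.95 (SE 0.877), or 1.45 without Ox-mtDNA replicate 2, and 44.6% of its exon bases lie opposite Wdr61 in counts made without strand. Dnajb2, a J protein known from neurons, stood at 17, 23 and 6.19 CPM in PBS and 13.5, 73.6 and 9.23 CPM in Ox-mtDNA. Of the Ox-mtDNA libraries only replicate 2 exceeded the PBS range of Dnajb2, and its log2 fold change of 1.06 (SE 0.849) became -0.45 without that library. Dnaja2 likewise had 128, 315 and 143 CPM in Ox-mtDNA against 160, 128 and 156 CPM in PBS, a log2 fold change of 0.40 (SE 0.359) that became -0.14 without Ox-mtDNA replicate 2. Dnajb6, a suppressor of protein aggregation with a 3-unit element, differed less, from 117, 103 and 167 CPM in PBS to 153, 180.1 and 195 CPM in Ox-mtDNA.

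**Figure D2:**
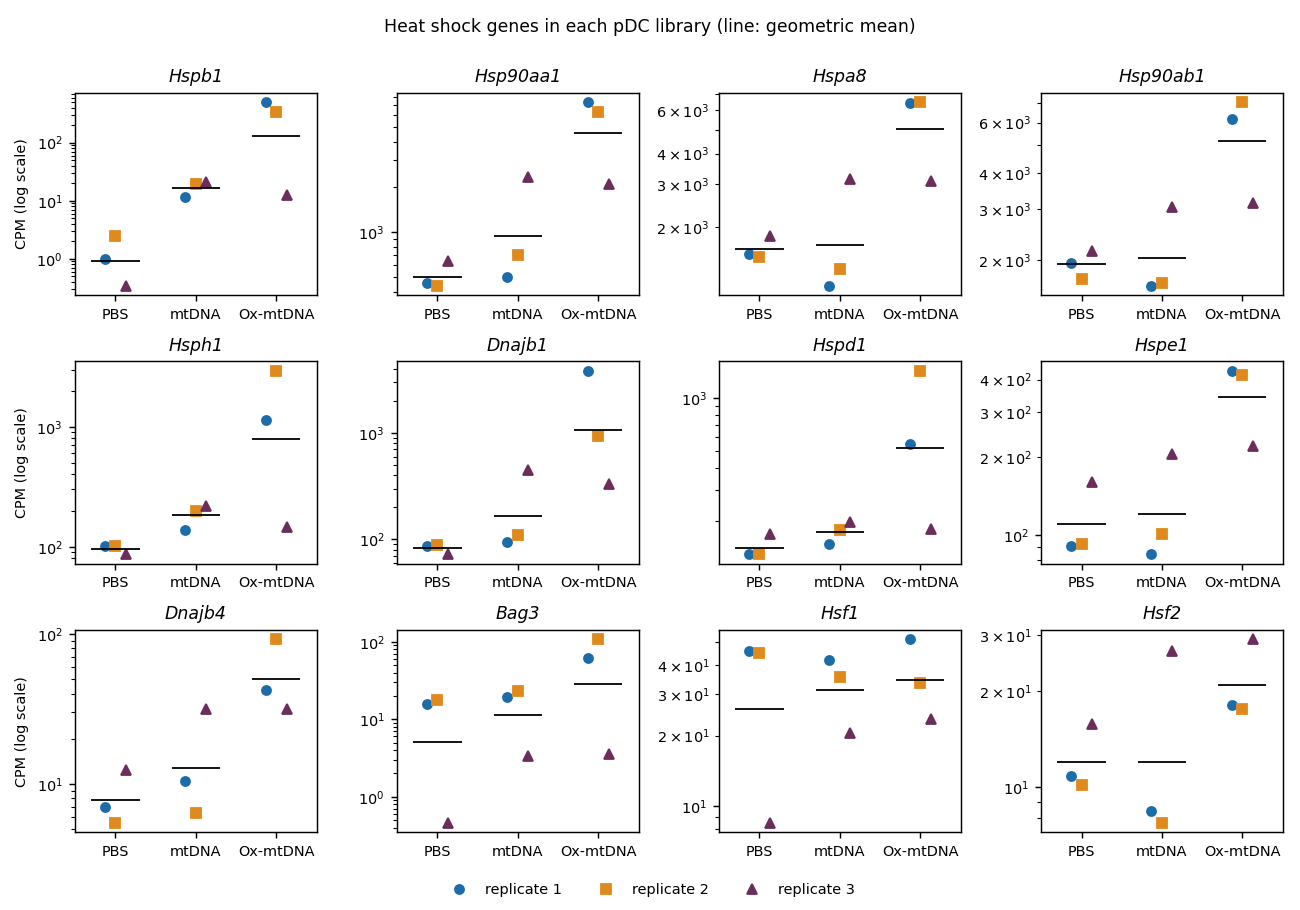
Levels of 12 members in CPM on a log axis, with 1 point per library marked by replicate number and a line at each group's geometric mean. In Ox-mtDNA, replicates 1 and 2 of Hsp90aa1 lie at 7374 and 6307 CPM and replicate 3 at 2088 CPM, while the points of Hsf1 overlap between groups.

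Of the HSP70 exchange factors, Bag3 differed most. Bag3 stood at 15.9, 17.7 and 0.456 CPM in PBS replicates 1, 2 and 3, at 19.5, 22.9 and 3.32 CPM in the mtDNA replicates and at 61.2, 108 and 3.56 CPM in the Ox-mtDNA replicates. BAG3 links HSP70 to autophagy. Within each replicate number Bag3 was higher after Ox-mtDNA than after PBS, by log2 differences of 1.91, 2.58 and 2.09, but all 3 replicate 3 libraries lay below all others, and PBS replicate 3 held 12 counts. The log2 fold change of 2.34 (SE 1.44) had an edgeR adjusted p of 0.692, and with the replicate block it was 2.37 (SE 0.49, adjusted p = 0.119). Without Ox-mtDNA replicate 2 the value of Bag3 was 1.5. Its GC content is 56.1%, and the value with a GC correction was 2.34. Bag1, which couples HSP70 to the proteasome, read 83.9, 79.7 and 82.1 CPM in PBS and 89.5, 106 and 104 CPM in Ox-mtDNA. The groups of Bag1 did not overlap although its log2 fold change was only 0.29 (SE 0.204). Hspbp1, an inhibitor of HSP70, had 29.9, 27.6 and 2.7 CPM in PBS and 25.3, 22.6 and 12.5 CPM in Ox-mtDNA, with a log2 fold change of 0.01 (SE 0.85). It was low in the replicate 3 libraries, like Hsf1, Bag3 and Dnajb2, and these 4 members have GC contents of 56.1% to 57.7%.

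All 6 HSP90 cochaperones had positive fold changes between 0.52 and 0.87. Stip1 (HOP), the adaptor between HSP70 and HSP90, stood at 169, 149 and 179 CPM in PBS and at 239, 438 and 232 CPM in Ox-mtDNA. Fkbp4 (FKBP52), an immunophilin that escorts steroid receptors, stood at 133, 134 and 98.1 CPM in PBS and at 210, 242 and 165 CPM in Ox-mtDNA. For both genes the groups did not overlap, with log2 fold changes of 0.87 (SE 0.318) and 0.76 (SE 0.255), unadjusted p of 0.0245 and 0.017, and adjusted p of 0.473 and 0.472 in edgeR's fit. Without Ox-mtDNA replicate 2, Stip1 had 0.49. Fkbp4 had the most even differences of the 6 across replicate numbers, 0.66, 0.85 and 0.75. Levels of Chordc1 were 84.3, 92.2 and 127 CPM (PBS 1 to 3), 80.6, 75.6 and 86.1 CPM (mtDNA 1 to 3) and 94, 325 and 87.1 CPM (Ox-mtDNA 1 to 3). In Chordc1 (CHORD domain protein, an HSP90 partner), as in Ahsa1, Cacybp and Ptges3, Ox-mtDNA replicate 2 was above all other libraries. The fold changes of these 4 were 0.73 (SE 0.504), 0.52 (SE 0.359), 0.77 (SE 0.367) and 0.70 (SE 0.399), and without Ox-mtDNA replicate 2 they were -0.18, 0.07, 0.37 and 0.04. Ahsa1 read 98, 88.5 and 129.5 CPM in PBS and 100.1, 229 and 123 CPM in Ox-mtDNA. Cacybp, a ubiquitin ligase adaptor, read 59.2, 57.6 and 89.6 CPM in PBS and 89.9, 172 and 89.5 CPM in Ox-mtDNA. Ptges3 read 135, 112 and 126 CPM in PBS and 135, 348 and 124 CPM in Ox-mtDNA. In all 3 of these genes Ox-mtDNA replicates 1 and 3 were at most slightly above the highest PBS library. AHSA1 stimulates the ATPase of HSP90 and PTGES3 (p23) slows it.

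The 4 subunits of the CCT chaperonin had small fold changes. Their log2 fold changes in Ox-mtDNA against PBS were 0.52 (SE 0.455) for Cct2, 0.49 (SE 0.331) for Cct3, 0.28 (SE 0.437) for Cct5 and 0.42 (SE 0.409) for Tcp1, and the groups overlapped for all 4. Cct2, Cct5 and Tcp1 were higher in the replicate 3 library of every group than in replicates 1 and 2 of PBS and mtDNA. Cct5, for example, read 270.4, 257 and 482 CPM in PBS and 335, 359.9 and 529.6 CPM in Ox-mtDNA. Cct3 had 182, 157 and 224 CPM in PBS and 175, 392 and 225 CPM in Ox-mtDNA, with replicate 2 the highest library, and its log2 fold change was 0.07 without it. Tcp1 shares 20% of its exon bases with Acat3 on the opposite strand.

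**Figure D3:**
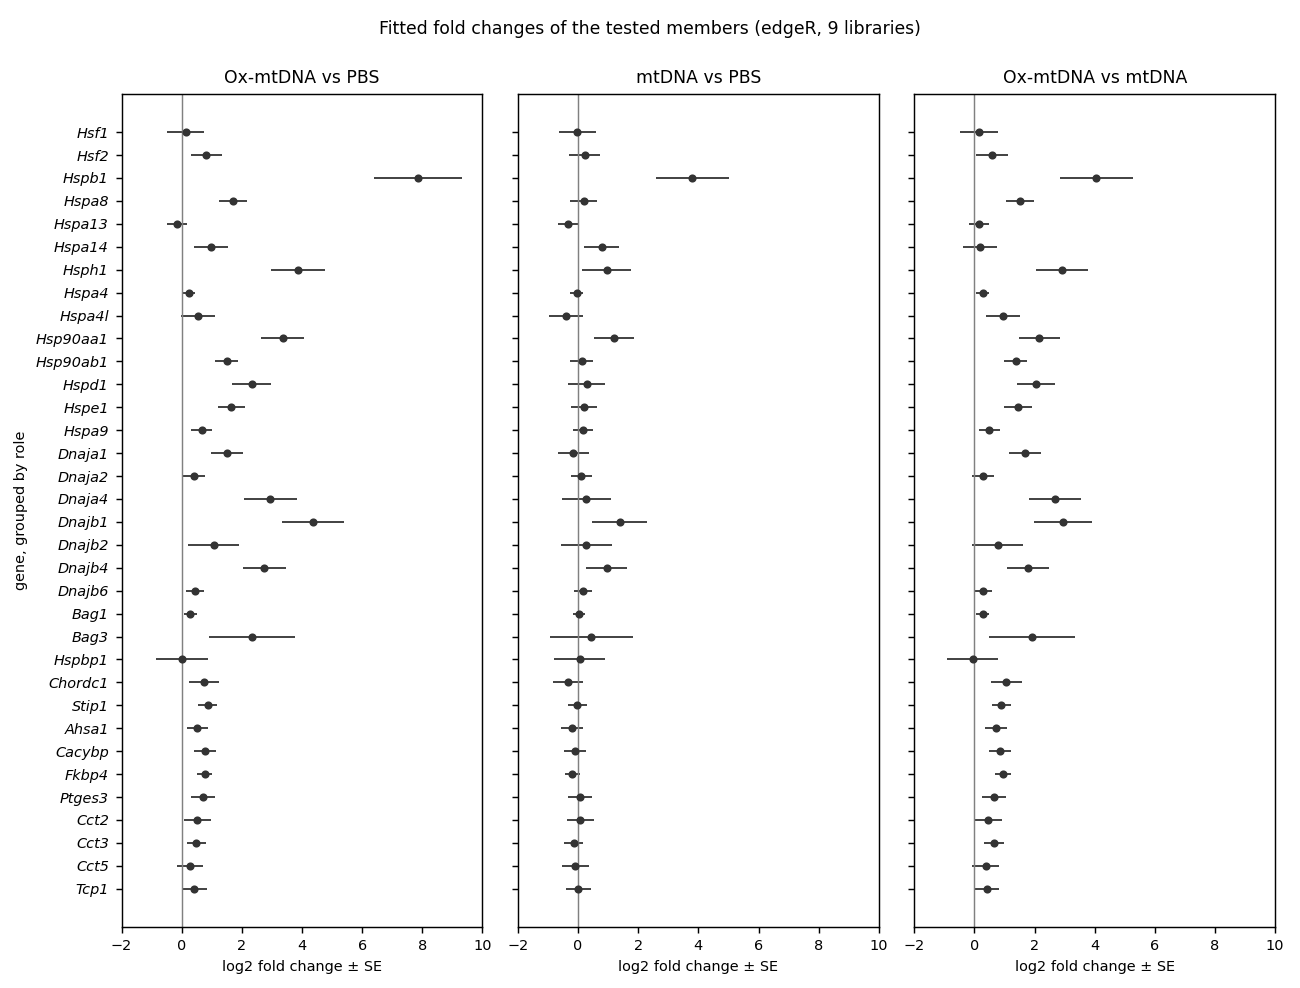
Log2 fold changes of the 34 tested members from edgeR's fit, with bars of 1 SE, in the 3 comparisons, which share libraries. In Ox-mtDNA against PBS the points run from -0.15 for Hspa13 to 7.85 for Hspb1 with 33 above 0, and in mtDNA against PBS 22 lie above 0.

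The mtDNA group, the control for oxidation, was compared with PBS to show what mitochondrial DNA did by itself, and this comparison shares its PBS libraries with the previous one. The median log2 fold change of the 34 members was 0.09, beside 0.02 over all genes. Positive values were found for 22 members (52% of all genes), and 3 exceeded 2-fold (8.6% of all genes). edgeR called 0 members (0% of genes) at an adjusted p under 0.05 and counted 1 member, Hspb1, higher at an unadjusted p under 0.05 (2.02% of genes) and 0 lower (0.598%). DESeq2 called 0 members among 14 genes (0.0797%), limma-voom 0, and limma-voom with quality weights and block called Hspb1 alone among 1337 genes (7.62%). The groups did not overlap for Hspb1, Hsph1 and Dnajb1, which were higher after mtDNA (5.58% of genes), and for Hspa4l, which was lower (4.96%). Higher values in all 3 replicate numbers were found for 14 members (20.8% of genes).

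Hspb1 had a log2 fold change of 3.80 (SE 1.22) in mtDNA against PBS, with an edgeR adjusted p of 1 and replicate differences of 3.01, 2.76 and 4.68. The limma-voom fit with quality weights and block gave 3.43 for Hspb1 at an adjusted p of 0.0225. Dnajb1 had 1.39 (SE 0.913) and Hsp90aa1 1.19 (SE 0.657), and both rested on mtDNA replicate 3, since without that library the values were 0.25 and 0.17. Hsph1 had 0.95 (SE 0.819) and kept 0.76 without mtDNA replicate 3. For the other members followed in this comparison the log2 fold changes were 0.19 (SE 0.447) for Hspa8, 0.12 (SE 0.381) for Hsp90ab1, 0.29 (SE 0.613) for Hspd1, 0.19 (SE 0.442) for Hspe1 and 0.43 (SE 1.38) for Bag3. The factors Hsf1 and Hsf2 had -0.02 (SE 0.618) and 0.22 (SE 0.523). Negative values stood at Hspa4l, with -0.40 (SE 0.56), Chordc1, with -0.33 (SE 0.502), and Dnaja1, with -0.16 (SE 0.523).

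Counted against the highest PBS library, 6 of the 34 members were higher in mtDNA replicate 1 (24.2% of all genes), 9 in replicate 2 (24.4%) and 19 in replicate 3 (30.1%). The same counts for Ox-mtDNA were 20 in replicate 1 (28%), 29 in replicate 2 (32.7%) and 21 in replicate 3 (31.2%). Below the lowest PBS library lay 14, 13 and 1 members in mtDNA replicates 1, 2 and 3 (21.2%, 22.4% and 28.5% of all genes) and 1, 0 and 2 in the Ox-mtDNA replicates (27.3%, 29.1% and 27%). mtDNA replicates 1 and 2 had more members below the PBS range than above it. The median member had a log2 level of 6.65, 6.6 and 6.99 in PBS replicates 1, 2 and 3, so these counts mix in differences between replicate numbers. Against the PBS library of the same number, 1, 1 and 9 members were more than 2-fold higher in mtDNA replicates 1, 2 and 3 (2.22%, 3.12% and 13.1% of all genes). For Ox-mtDNA these were 12, 23 and 8 members (8.08%, 12.1% and 16.4%).

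The comparison of Ox-mtDNA with mtDNA isolates oxidation of the DNA, as far as the labels describe it, and shares libraries with both comparisons above. The median log2 fold change of the members was 0.82, beside 0.04 over all genes, and 0.46 without Ox-mtDNA replicate 2. Of the 34 members, 33 were positive (54.2% of genes) and 13 exceeded 2-fold (5.98%). At an adjusted p under 0.05, edgeR called 0 members (0% of genes), DESeq2 0 among 1 gene (0.0057%), limma-voom 0, and limma-voom with weights and block 0 among 14 genes (0.0797%). At an unadjusted p under 0.05, edgeR counted 14 members higher, beside 0.923% of all genes, and 0 lower, beside 1.48%. The groups did not overlap for 8 members, Hsp90ab1, Hspe1, Hspa4, Bag1, Chordc1, Stip1, Cacybp and Fkbp4, all higher after Ox-mtDNA (2.04% of genes higher and 2.79% lower). Members higher in each replicate number came to 16 (15.1% of genes).

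Hspb1 had a log2 fold change of 4.05 (SE 1.22) between Ox-mtDNA and mtDNA. The next values were 2.96 (SE 0.965) for Dnajb1, 2.92 (SE 0.872) for Hsph1, 2.16 (SE 0.676) for Hsp90aa1, 2.04 (SE 0.636) for Hspd1 and 1.92 (SE 1.42) for Bag3 among the members followed here. Dnajb1 had 1.5 without Ox-mtDNA replicate 1, and without replicate 2 Hsph1, Hspd1 and Bag3 had 1.79, 1.06 and 1.08. Dnaja1 had 1.67 (SE 0.537), Hspa8 1.51 (SE 0.456), Hspe1 1.45 (SE 0.451) and Hsp90ab1 1.37 (SE 0.388). Chordc1 had 1.06 (SE 0.507) and Hspa4l 0.94 (SE 0.564), and without Ox-mtDNA replicate 2 Dnaja1, Chordc1 and Hspa4l had 0.95, 0.16 and -0.10. Hsf2 had 0.59 (SE 0.524) and Hsf1 0.15 (SE 0.618), or 0.24 without Ox-mtDNA replicate 3 and -0.18 without Ox-mtDNA replicate 1. The edgeR adjusted p was 1 for every one of these members.

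The difference between Ox-mtDNA and mtDNA was present in replicates 1 and 2 and near 0 in replicate 3. In replicate 1, 29 of the 34 members were higher after Ox-mtDNA and 14 differed by more than 2-fold (16.2% of all genes), with a median log2 difference of 0.69. In replicate 2, 32 were higher and 26 differed by more than 2-fold (19.7% of all genes), with a median of 1.53. In replicate 3, 18 were higher and 16 lower, the differences ran from -0.73 to 0.84 with a median of 0.02, and 0 members differed by more than 2-fold, as 2.68% of all genes did. Hspb1 had differences of 5.40, 4.12 and -0.73 in replicates 1, 2 and 3, Hsp90aa1 3.88, 3.16 and -0.15, Dnajb1 5.34, 3.09 and -0.43 and Hspa8 2.47, 2.27 and -0.02. In replicate 3 both treated libraries thus stood above PBS at these members by similar amounts, with Hsp90aa1 higher by 1.84 after mtDNA and 1.69 after Ox-mtDNA. Replicate 3 also has the lower values of GC-rich genes and the Xist signal, and their part was not tested.

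**Figure D4:**
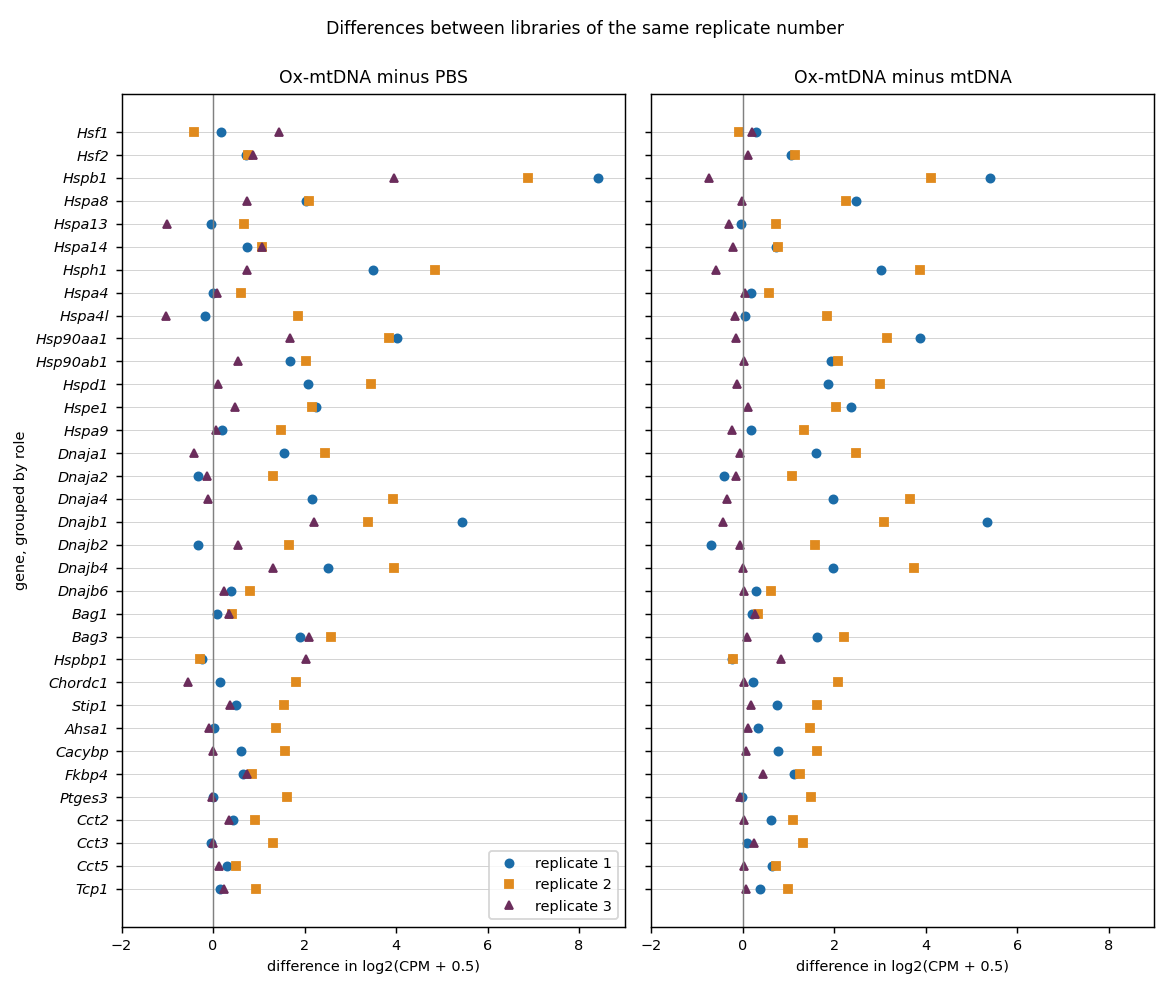
Differences in log2(CPM + 0.5) between libraries of the same replicate number for the tested members, Ox-mtDNA minus PBS and Ox-mtDNA minus mtDNA, with 1 point per member and replicate. The replicate 3 points of Ox-mtDNA minus mtDNA lie between -0.73 and 0.84, while those of replicates 1 and 2 reach 5.40 and 4.12.

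Ox-mtDNA replicates 1 and 2 differed from each other in which members were high. Replicate 2 was higher for 27 of the 34 members (49.4% of all genes), and by more than 2-fold for 11 (14.2% of all genes), while only Dnajb1 was more than 2-fold higher in replicate 1 (13.6% of all genes). The ratio of replicate 2 to replicate 1 was 5.45 for Dnajb2, 3.94 for Dnaja4, 3.75 for Hspa4l and 3.45 for Chordc1. It was close to 1 for Hspa8, at 1.01, and for Hspe1, at 0.961. Between PBS replicates 1 and 2, Dnajb2, Hspa4l, Dnaja4 and Chordc1 differed by 0.43, -0.12, 0.17 and 0.13 on the log2 scale. The sum of the immediate-early genes had the opposite order, with 13112 CPM in Ox-mtDNA replicate 1 and 3359 CPM in replicate 2. Jun alone held 6725 and 492 CPM of these sums, while Junb, Egr1, Egr2, Ier3 and Ier5 were higher in replicate 2. The pDC markers summed to 11212 and 4969 CPM, with Irf8 at 4077 and 808 CPM. Of the pDC markers, Tlr7, Tlr9 and Il3ra were higher in replicate 2. The part of both gene sets in the difference between these libraries was not tested.

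Per kilobase of exon, the level allows genes to be compared with each other. In PBS, Hsp90ab1 at 770.3 ± 86.1 CPM per kb (SD, n = 3) and Hspa8 at 686 ± 76.3 led the module, with overlapping ranges of 1 SD. These SDs are taken between libraries and do not measure the spread of a difference between 2 genes within a library. Cct5 and Cct2 followed at 181 ± 68.1 and 158 ± 59.2, then Hsp90aa1 at 152 ± 34 and Hspe1 at 147 ± 51.2, and these 4 neighbours overlapped within 1 SD. Hspb1 ranked 33 of 35 in PBS at 1.21 ± 1.03 CPM per kb, above only Dnaja4 and Cryab. After Ox-mtDNA the mean levels were 2229.6 ± 810.4 for Hspa8, 2169 ± 819 for Hsp90ab1 and 1555 ± 827 for Hsp90aa1. Dnajb1 came next at 532 ± 585, and Hspe1, Hsph1, Hspd1 and Hspb1 took the following ranks with 462 ± 152, 334 ± 335, 297 ± 264 and 278 ± 243. Among these 8 genes only the step from Hsp90aa1 to Dnajb1 exceeded the SD of both neighbours, and for Dnajb1, Hsph1, Hspd1 and Hspb1 the SD was about as large as the mean.

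The rest of the chaperone network was followed through 97 further genes, of which 86 were tested. Their median log2 fold change in Ox-mtDNA against PBS was 0.08, beside 0.06 over all genes, and 50 were positive and 36 negative. At an adjusted p under 0.05, edgeR called 0 (0% of all genes). At an unadjusted p under 0.05 it counted 7 higher and 2 lower, beside 5.88% and 3.93% of all genes. Their groups did not overlap for 8 genes higher and 11 lower, beside 7.39% and 8.08% of all genes. The 12 chaperones of the endoplasmic reticulum had a median of -0.14 with 5 positive, and the 23 other J proteins had -0.05 with 11 positive. The 10 other CCT subunits and prefoldin genes had 0.18 with 7 positive. Of these, the CCT subunits had 0.48 to 0.51, inside the range of the member subunits (0.28 to 0.52), and the prefoldin genes -0.29 to 0.21. The 7 genes listed as further HSF1 targets, 1 of them a collagen chaperone, were all positive with a median of 1.32, beside 53.8% of all genes positive. At an unadjusted p under 0.05 in edgeR's test, 5 of the 7 were higher, beside 5.88% of all genes. This list too was chosen with earlier results of these data known. Hmox1, which degrades haem and also answers to NRF2, had a fitted log2 value of 3.86 (SE 1.35), from 192, 69.2 and 37.5 CPM to 814, 3478 and 58.9 CPM, and Dedd2 had 1.32 (SE 1.57). The lowest values were those of the J proteins Dnajb14, with -0.92 (SE 0.385), Dnajc16, with -0.85 (SE 0.415), and Dnajc13, with -0.83 (SE 0.362). None of these 5 had an edgeR adjusted p below 0.472.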

How the data were processed

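Polyadenylated RNA of 9 libraries of sorted mouse pDCs, 3 each for PBS, mtDNA and Ox-mtDNA, was analysed. The deposited table holds whole-number read counts per gene. Per the file headers, the authors counted read pairs over exons with featureCounts 2.0.1 (GENCODE M34 basic annotation, GRCm39), assigning a read to every gene it overlaps, without strand and without multimapping reads. The submitters' processing notes also name fastp 0.23.4 and STAR 2.7.11b. Gene symbols were matched for 51884 of 57126 genes. Genes passing edgeR's filter (minimum count 10) were fitted over all 9 libraries with TMM scaling and edgeR 4.0.16's quasi-likelihood test (R 4.3.3), with 6 residual degrees of freedom and Benjamini-Hochberg adjustment over all tested genes at 0.05. Per-library differences use log2(CPM + 0.5). The scripts were tested on simulated data. Members, gene lists and rules were chosen with earlier results of these data known. All members were described for Ox-mtDNA against PBS, 14 of them with fitted values in the other comparisons, and outside the module the 3 highest and 3 lowest genes with a mean of at least 10 CPM, of which 1 is not reported here. Replicates differed beyond sampling noise, so each counted as 1 sample. Deviations from the group mean correlated between same-numbered libraries at 0.498 to 0.905 in all 9 pairs, so the numbers were taken to pair the libraries, from the data and not from the labels. Libraries 1 and 2 of different groups also correlated at 0.548 to 0.739 across numbers, so this check separates number 3 from the others and does not tell 1 from 2. Alternatives used DESeq2 1.42.0, limma 3.58.1, other scalings and filters, a replicate block, fewer libraries, and a GC correction chosen after seeing the data, with GC contents from GENCODE M21 transcripts.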

Additional observations from a re-analysis of the deposited data

How the results depend on the processing

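In Ox-mtDNA against PBS, the genes called at an adjusted p under 0.05 went from 0 to 370 with DESeq2, 423 with limma-voom with quality weights and block, 25 in replicates 1 and 2 alone, 1 with the replicate block and 1 with the GC correction and replicate block. The members called went from 0 to 8, 4 and 5 in the first 3 of these. In mtDNA against PBS the genes called went to 14 with DESeq2 and 1337 with quality weights and block, which called 1 member. In Ox-mtDNA against mtDNA they went to 1 and 14. The replicate block added to replicates 1 and 2 alone took the 25 genes and 5 members called there to 0, and it changed no other member call. Without each library in turn, 0 genes and 0 members were called in each comparison, and the members' median ran from 0.46 to 0.89 in Ox-mtDNA against PBS (lowest without Ox-mtDNA replicate 2), 0.46 to 1.12 in Ox-mtDNA against mtDNA and -0.19 to 0.17 in mtDNA against PBS (lowest without mtDNA replicate 3).

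Signs reversed for several members with values near 0. Without Ox-mtDNA replicate 2 they also reversed in Ox-mtDNA against PBS for Hspa4l, Dnaja2, Dnajb2 and Chordc1, at 0.53, 0.40, 1.06 and 0.73 in the main fit. Hspa4l, at 0.94 in Ox-mtDNA against mtDNA, reversed there too without that library. In mtDNA against PBS, Hsf1 (-0.02) had 0.05 with upper quartile scaling, 0.31 with limma-voom, 0 with a filter of 1 CPM in 3 libraries, 0.02 with 6 libraries, 0.19 with the replicate block, 0.12 with the GC correction and 0.14 with both. Voom with quality weights, replicates 1 and 2 alone, and those with the replicate block gave -0.27, -0.38 and -0.38 for Hsf2 (-0.01 with plain limma-voom), -0.10, -0.16 and -0.16 for Hsp90ab1, and -0.22, -0.30 and -0.30 for Hspa8. In Ox-mtDNA against PBS, replicates 1 and 2 without and with the block gave -0.09 and -0.12 for Hsf1, 0.34 and 0.35 for Hspa13, and -0.26 and -0.26 for Hspbp1, which had -0.05 without a filter. Quality weights gave -0.05 for Hspa4l. Over single libraries left out, reversed members ran, in mtDNA against PBS, from -0.48 to 0.29 (Hsf1), -0.67 to 0.50 (Hsf2), -0.30 to 0.26 (Hsp90ab1), -0.45 to 0.43 (Hspa8), -0.37 to 0.50 (Hspe1) and -0.14 to 0.89 (Bag3). In Ox-mtDNA against PBS they ran from -0.34 to 0.43 (Hsf1), -0.40 to 0.17 (Hspa13), -0.52 to 0.40 (Hspbp1), -0.51 to 0.82 (Hspa4l), -0.14 to 0.59 (Dnaja2), -0.45 to 1.47 (Dnajb2), -0.18 to 0.98 (Chordc1) and -0.02 to 0.62 (Cct5), and in Ox-mtDNA against mtDNA from -0.18 to 0.37 (Hsf1) and -0.10 to 1.26 (Hspa4l). The cause of these shifts was not tested. All other values kept their direction among those recomputed, which cover 34 members in Ox-mtDNA against PBS and 14 in each other comparison, and no gene outside the module. Depth limits Cryab, with 1 to 7 counts per library, and Hspb1 in PBS, with 9 to 47.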
